A study of Mus musculus with 18 samples.

Results

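The immediate early transcription factors described here were 10 genes: Fos, Fosb, Jun, Junb, Egr1, Egr2, Nr4a1, Nr4a2, Nr4a3 and Npas4. They were chosen by name, each through the transcript cluster that the array's annotation assigned to that symbol alone, and they are 10 of 22180 genes measured. Each had exactly 1 such cluster and shared 0 clusters with another gene. Levels came from 18 arrays of hypothalamus, pituitary and ovary, 6 arrays for each of the 3 tissues, taken from superovulated female BABL/c mice (strain spelled as in the labels). Littermates from 10 pairs were divided at 6 weeks of age between a control group, kept in the laboratory, and a stress group that spent nearly 10 h on the road, covering 1000 km at 50 km/h on average. All were superovulated at 9 weeks, and the interval from transport to superovulation or to killing is not given in the sources used here. In each group 1 array per tissue came from the mouse that ovulated most oocytes (high), 1 from the mouse that ovulated fewest (low) and 1 from RNA of the other 8 mice mixed (pool). Each tissue thus had 3 control and 3 stressed arrays, and only the high and low arrays were single mice.

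Immediate early transcription factors are made within minutes of a stimulus, from promoters already primed, without new protein synthesis. Depolarisation, hormones and growth factors reach these promoters through kinases that act on CREB and on SRF with its ETS partners, and the transcripts decay quickly, so their level reports recent stimulation. FOS and JUN proteins pair as the AP-1 factor, EGR proteins are zinc finger factors, NR4A proteins are orphan nuclear receptors, and NPAS4 is a neuronal factor that answers calcium entry. In brain these genes mark recently active neurons, in pituitary they answer hypothalamic releasing hormones, and in ovary several of them rise in granulosa cells after the luteinising hormone surge.

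The windows just upstream of the start sites were searched for the half-site TGACG of the element that CREB binds. RefSeq promoter sequences (GRCm38.p6) held a window for 9 of the 10 members, not Egr1, and the 250 bases before each start were searched on both strands. Egr2 has 5 listed start sites, so the 9 genes had 13 windows. Windows 3, 4 and 5 of Egr2 overlap and hold the same 2 half-sites. The half-site was in 10 of the 13, each overlapping Egr2 window being counted, against 17.8% of 32851 windows of all genes. By gene, 8 of 9 had it, and only Jun had it in no window. Nr4a1, Nr4a2 and Nr4a3 each held 4 copies, a number reached or passed in 0.137% of windows. The 3 receptor windows are printed for that density, and those of Npas4 and Fos, which held 2 copies each, for comparison. Capitals mark each half-site, read as TGACG or, on the other strand, as CGTCA.
Nr4a1, chr15:101266596-101266845, plus strand: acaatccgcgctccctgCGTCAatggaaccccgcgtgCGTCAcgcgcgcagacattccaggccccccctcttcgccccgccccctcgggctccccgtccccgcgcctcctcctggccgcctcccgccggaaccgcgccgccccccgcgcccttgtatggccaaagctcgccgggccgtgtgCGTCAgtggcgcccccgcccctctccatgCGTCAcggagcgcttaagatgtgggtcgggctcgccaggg
Nr4a2, chr2:57124004-57124253, minus strand: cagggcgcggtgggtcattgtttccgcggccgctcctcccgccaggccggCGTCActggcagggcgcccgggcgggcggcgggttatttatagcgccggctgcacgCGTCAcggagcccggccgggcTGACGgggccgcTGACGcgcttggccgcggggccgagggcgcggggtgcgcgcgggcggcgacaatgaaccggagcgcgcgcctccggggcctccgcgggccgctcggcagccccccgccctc
Nr4a3, chr4:48045055-48045304, plus strand: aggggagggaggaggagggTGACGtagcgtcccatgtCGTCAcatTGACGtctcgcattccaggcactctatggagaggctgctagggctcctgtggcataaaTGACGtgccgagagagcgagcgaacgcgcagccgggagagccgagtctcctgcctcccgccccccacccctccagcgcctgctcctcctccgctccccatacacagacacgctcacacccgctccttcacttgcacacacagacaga
Npas4, chr19:4989972-4990221, minus strand: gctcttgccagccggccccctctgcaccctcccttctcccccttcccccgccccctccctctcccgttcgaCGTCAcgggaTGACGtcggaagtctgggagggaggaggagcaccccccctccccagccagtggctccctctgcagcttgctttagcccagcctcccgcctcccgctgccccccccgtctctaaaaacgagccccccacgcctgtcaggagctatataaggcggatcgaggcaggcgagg
Fos, chr12:85473640-85473889, plus strand: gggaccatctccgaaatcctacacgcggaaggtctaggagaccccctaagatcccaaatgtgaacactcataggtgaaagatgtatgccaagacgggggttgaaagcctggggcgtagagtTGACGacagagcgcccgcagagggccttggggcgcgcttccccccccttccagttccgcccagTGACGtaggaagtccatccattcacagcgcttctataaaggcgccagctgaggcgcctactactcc
In Nr4a1 the half-sites began at -233, -213, -69 and -40 relative to the start, in Nr4a2 at -200, -144, -123 and -111, and in Nr4a3 at -231, -213, -205 and -147. Those of Npas4 began at -179 and -169, and those of Fos at -129 and -66. The full palindrome TGACGTCA was in none of the member windows (0 of 13) and in 1.55% of all windows. The AP-1 letters TGANTCA (6.75% of all windows), the NR4A element AAAGGTCA (1.34%) and the EGR element GCGTGGGCG (0.536%) were also in 0 of the 13. The SRF element known as the CArG box was in windows of Egr2 only, 1 of 9 genes. That made 4 of 13 windows, the overlapping ones included, against 1.47% of all windows. The full palindrome contains 2 half-sites, so these motifs overlap. A match describes letters in a window and shows no binding.

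Array quality and tissue identity were checked first. All 7 measured hypothalamic markers and all 7 pituitary markers were higher in every array of their tissue than in any other array, as were 8 of 9 ovarian markers, with Amh the exception. Some arrays also held transcripts of other tissues. The mean log2 level of the 9 ovarian markers was 6.11 in the stressed hypothalamus pool against 4.75 to 5.09 in the other 5 hypothalamus arrays, and 6.82 in the stressed pituitary pool against 4.80 to 5.08 in the other 5. The 7 pituitary markers averaged 6.42 and 6.76 in the 2 ovary pools against 4.30 to 4.57 in single ovaries, and Prl, the prolactin gene, ranged from 5.53 to 9.26 over the 6 hypothalamus arrays. These values are set beside the results they move with. In whole tissue, fewer cells of a type and less RNA per cell cannot be told apart.

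Most of the differences that passed a test among these genes were between tissues. Values below are log2 signals in the order high, low and pool. Tissues were compared in limma over all 18 arrays with the mouse or pool as a random block, and p-values were adjusted by Benjamini-Hochberg over 22180 genes. Adjusted p under 0.05 counts as passing. In pituitary against hypothalamus 2 members passed as higher and 2 as lower, where 19.9% of all genes passed as higher and 19.6% as lower. In ovary against hypothalamus 4 passed as higher and 3 as lower (25.7% and 21.5% of all genes). In ovary against pituitary 2 passed as higher and 4 as lower (21.8% and 19.2% of all genes). Without the random block 5 members passed in ovary against hypothalamus, Jun and Junb being lost, and 3 in ovary against pituitary, Fos, Fosb and Nr4a3 being lost. Levels are compared within a gene only, since the probes of different genes respond differently.

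**Figure D1:**
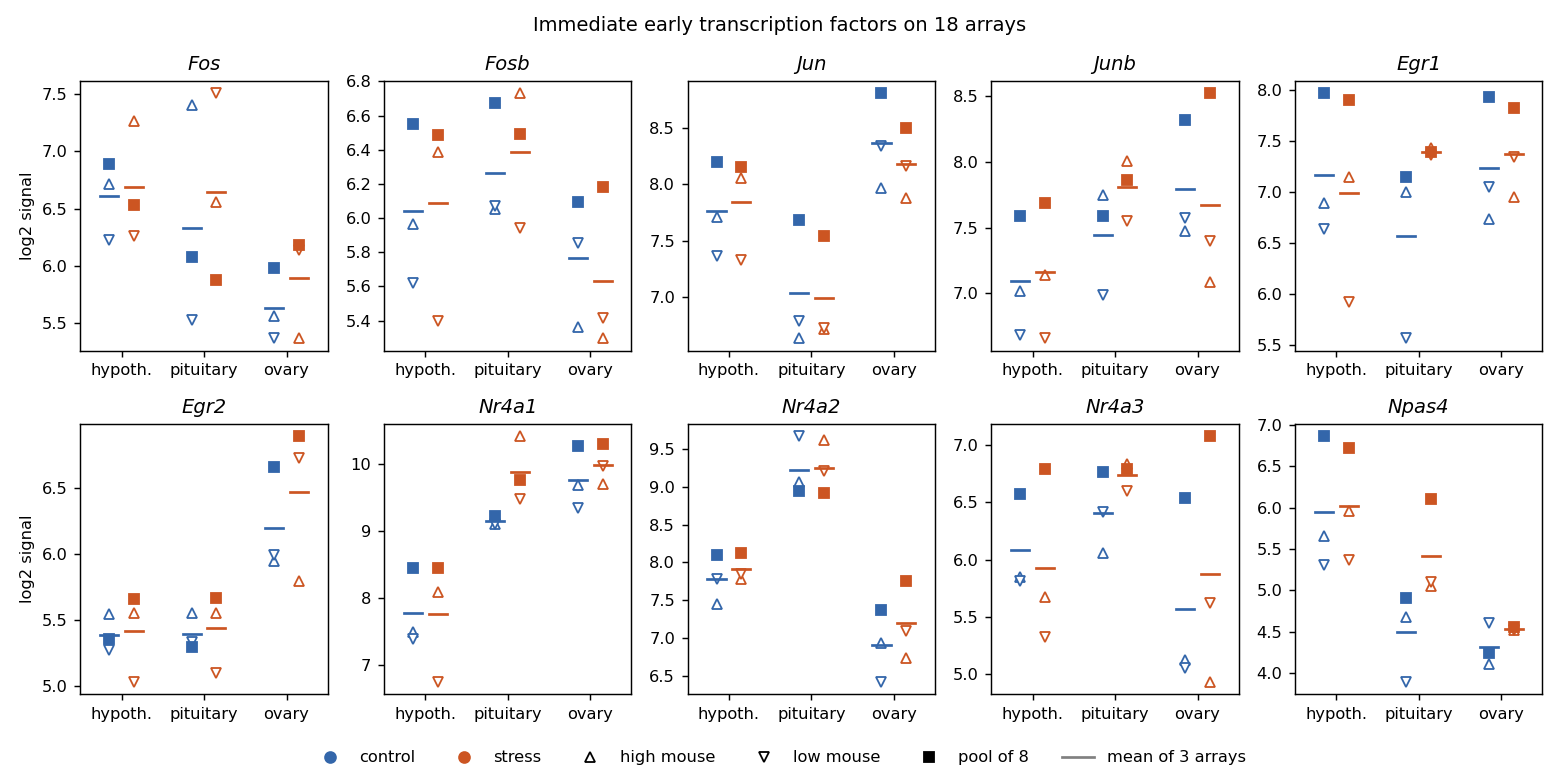
Log2 signal of each gene (y axis, a separate scale per panel) on the 18 arrays by tissue (x axis), with controls in blue, stressed samples in orange, triangles for the high and low mice, filled squares for pools and a bar at the mean of 3. Nr4a1 was lowest in hypothalamus and Nr4a2 highest in pituitary, while control and stressed values overlapped in most panels.

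Nr4a1 (NUR77), which drives Pomc in corticotropes and steroidogenic genes in the gonad, was higher in pituitary and in ovary than in hypothalamus. Hypothalamic Nr4a1 read 7.49, 7.40 and 8.45 in the control high, low and pool arrays and 8.09, 6.76 and 8.46 in the stressed ones. Pituitary values of Nr4a1 were 9.11, 9.11 and 9.22 in controls and 10.41, 9.48 and 9.76 after stress. Ovarian Nr4a1 read 9.68, 9.34 and 10.27 in controls and 9.70, 9.96 and 10.30 after stress. Every hypothalamus array lay below every array of the other tissues. The pituitary difference was 1.74 (SE 0.23, 3.34-fold, adjusted p = 3.98e-06) and the ovary difference 2.10 (SE 0.23, 4.28-fold, adjusted p = 1.93e-07). Ovary and pituitary, the upper neighbours, differed by 0.36 with a 95% confidence interval from -0.12 to 0.83 and did not pass (adjusted p = 0.228).

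Nr4a2 (NURR1), which dopamine neurons need to form, followed another order: pituitary, hypothalamus, ovary. Hypothalamic Nr4a2 read 7.45, 7.78 and 8.09 in the control high, low and pool arrays and 7.78, 7.84 and 8.12 in the stressed ones. Pituitary values of Nr4a2 were 9.07, 9.67 and 8.94 in controls and 9.63, 9.22 and 8.92 after stress. Ovarian Nr4a2 read 6.93, 6.42 and 7.37 in controls and 6.73, 7.10 and 7.75 after stress. The pituitary range lay above both other tissues with no overlap. Pituitary exceeded hypothalamus by 1.40 (SE 0.20, 2.63-fold, adjusted p = 9.98e-06) and ovary minus pituitary was -2.19 (4.57-fold lower, adjusted p = 2.53e-08). Ovary also lay below hypothalamus, a difference of -0.79 (adjusted p = 0.00216), although the stressed ovary pool reached into the hypothalamic range.

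Nr4a3 (NOR1), the remaining receptor of the family, was lower in ovary than in pituitary on average. Hypothalamic Nr4a3 read 5.85, 5.82 and 6.58 in the control high, low and pool arrays and 5.68, 5.32 and 6.79 in the stressed ones. Pituitary values of Nr4a3 were 6.05, 6.42 and 6.76 in controls and 6.84, 6.60 and 6.79 after stress. Ovarian Nr4a3 read 5.13, 5.05 and 6.54 in controls and 4.93, 5.62 and 7.08 after stress. The difference was -0.85 (SE 0.27, adjusted p = 0.0163), but the ovary split between pools and single mice, and the stressed ovary pool at 7.08 was the highest of all 18 values. Without the pool arrays the ovary to pituitary difference was -1.30 (adjusted p = 5.12e-05) and pituitary then also exceeded hypothalamus by 0.81 (adjusted p = 0.00270), against 0.57 (adjusted p = 0.108) on all arrays. Ovary minus hypothalamus was -0.28 (adjusted p = 0.445), and -0.48 (adjusted p = 0.0448) without the pools.

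Npas4, the calcium-driven neuronal factor, was highest in hypothalamus. Hypothalamic Npas4 read 5.66, 5.31 and 6.86 in the control high, low and pool arrays and 5.96, 5.36 and 6.71 in the stressed ones. Pituitary values of Npas4 were 4.68, 3.90 and 4.91 in controls and 5.05, 5.10 and 6.10 after stress. Ovarian Npas4 read 4.11, 4.60 and 4.25 in controls and 4.52, 4.52 and 4.55 after stress. Its difference from hypothalamus was -1.02 in pituitary (SE 0.24, adjusted p = 0.00173) and -1.55 in ovary (adjusted p = 1.60e-05). Ovary and pituitary were neighbours that did not differ past the threshold (-0.53, interval -1.03 to -0.04, adjusted p = 0.0822). The lowest single reading was the control low pituitary at 3.90. Column medians over all clusters ran from 4.75 to 5.03, so every ovary reading lay below that range, as did the control high and low pituitary readings.

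Jun, the main partner of FOS proteins, was highest in ovary and lowest in pituitary. Hypothalamic Jun read 7.71, 7.37 and 8.20 in the control high, low and pool arrays and 8.05, 7.33 and 8.15 in the stressed ones. Pituitary values of Jun were 6.63, 6.79 and 7.68 in controls and 6.72, 6.73 and 7.54 after stress. Ovarian Jun read 7.96, 8.34 and 8.81 in controls and 7.88, 8.16 and 8.50 after stress. Ovary exceeded pituitary by 1.26 (SE 0.18, 2.39-fold, adjusted p = 1.28e-05), with no overlap between the tissues. Pituitary lay below hypothalamus (-0.79, adjusted p = 0.00173) and ovary above it (0.47, adjusted p = 0.0395). The last difference passed in 13 of 22 alternative settings and missed the threshold without the pool arrays (adjusted p = 0.0569).

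Junb, a JUN relative that restrains cell growth, differed less between tissues. Hypothalamic Junb read 7.01, 6.68 and 7.59 in the control high, low and pool arrays and 7.14, 6.66 and 7.69 in the stressed ones. Pituitary values of Junb were 7.75, 6.99 and 7.59 in controls and 8.01, 7.55 and 7.86 after stress. Ovarian Junb read 7.47, 7.58 and 8.32 in controls and 7.09, 7.40 and 8.52 after stress. Ovary exceeded hypothalamus by 0.60 (SE 0.21, adjusted p = 0.0222), and without the pools by 0.51 (adjusted p = 0.0565). Pituitary minus hypothalamus was 0.50 (adjusted p = 0.0668) on all arrays and 0.70 (adjusted p = 0.0135) without the pools. Both pools were the highest values in hypothalamus and in ovary but not in pituitary.

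Fos, the classical marker of stimulated neurons, was lower in ovary than in the other tissues. Hypothalamic Fos read 6.71, 6.23 and 6.89 in the control high, low and pool arrays and 7.27, 6.26 and 6.53 in the stressed ones. Pituitary values of Fos were 7.41, 5.53 and 6.07 in controls and 6.56, 7.51 and 5.87 after stress. Ovarian Fos read 5.56, 5.37 and 5.98 in controls and 5.37, 6.14 and 6.18 after stress. Differences were -0.88 against hypothalamus (SE 0.28, adjusted p = 0.0132) and -0.72 against pituitary (adjusted p = 0.0455), the latter passing in 8 of 22 alternative settings. Pituitary and hypothalamus did not differ past the threshold (-0.16, interval -0.75 to 0.43). Single pituitaries spread widely, with the control high and stressed low mice at 7.41 and 7.51 and the control low mouse at 5.53.

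Fosb, whose splice form accumulates with repeated stimulation in brain, was lower in ovary than in pituitary. Hypothalamic Fosb read 5.96, 5.62 and 6.55 in the control high, low and pool arrays and 6.39, 5.39 and 6.49 in the stressed ones. Pituitary values of Fosb were 6.05, 6.07 and 6.67 in controls and 6.73, 5.94 and 6.49 after stress. Ovarian Fosb read 5.36, 5.85 and 6.09 in controls and 5.29, 5.42 and 6.18 after stress. That difference was -0.63 (SE 0.19, adjusted p = 0.0120), and the ranges overlapped through the ovary pools. Fosb differed from hypothalamus by 0.26 in pituitary (adjusted p = 0.312) and by -0.37 in ovary (adjusted p = 0.128), neither past the threshold.

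Egr2 (KROX20), needed for myelination and hindbrain patterning, was higher in ovary. Hypothalamic Egr2 read 5.54, 5.28 and 5.36 in the control high, low and pool arrays and 5.55, 5.04 and 5.66 in the stressed ones. Pituitary values of Egr2 were 5.56, 5.34 and 5.30 in controls and 5.56, 5.11 and 5.67 after stress. Ovarian Egr2 read 5.95, 5.99 and 6.66 in controls and 5.80, 6.73 and 6.89 after stress. All 6 ovary values lay above all 12 values of the other tissues. The ovary difference was 0.93 against hypothalamus (SE 0.17, 1.91-fold, adjusted p = 0.000151) and 0.92 against pituitary (1.89-fold, adjusted p = 0.000246). Hypothalamus and pituitary differed by 0.02 (interval -0.35 to 0.38).

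Egr1, which activates Lhb in gonadotropes, had no tissue difference past the threshold. Hypothalamic Egr1 read 6.90, 6.64 and 7.97 in the control high, low and pool arrays and 7.14, 5.92 and 7.90 in the stressed ones. Pituitary values of Egr1 were 6.997, 5.57 and 7.15 in controls and 7.43, 7.36 and 7.39 after stress. Ovarian Egr1 read 6.74, 7.05 and 7.93 in controls and 6.95, 7.35 and 7.82 after stress. Estimates were -0.10 for pituitary (interval -0.68 to 0.49) and 0.23 for ovary (interval -0.36 to 0.81) against hypothalamus, and 0.32 for ovary against pituitary (interval -0.26 to 0.91). Readings ranged from 5.57 to 7.97 within the series, and the lowest were the low mice of the control pituitary and the stressed hypothalamus.

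**Figure D2:**
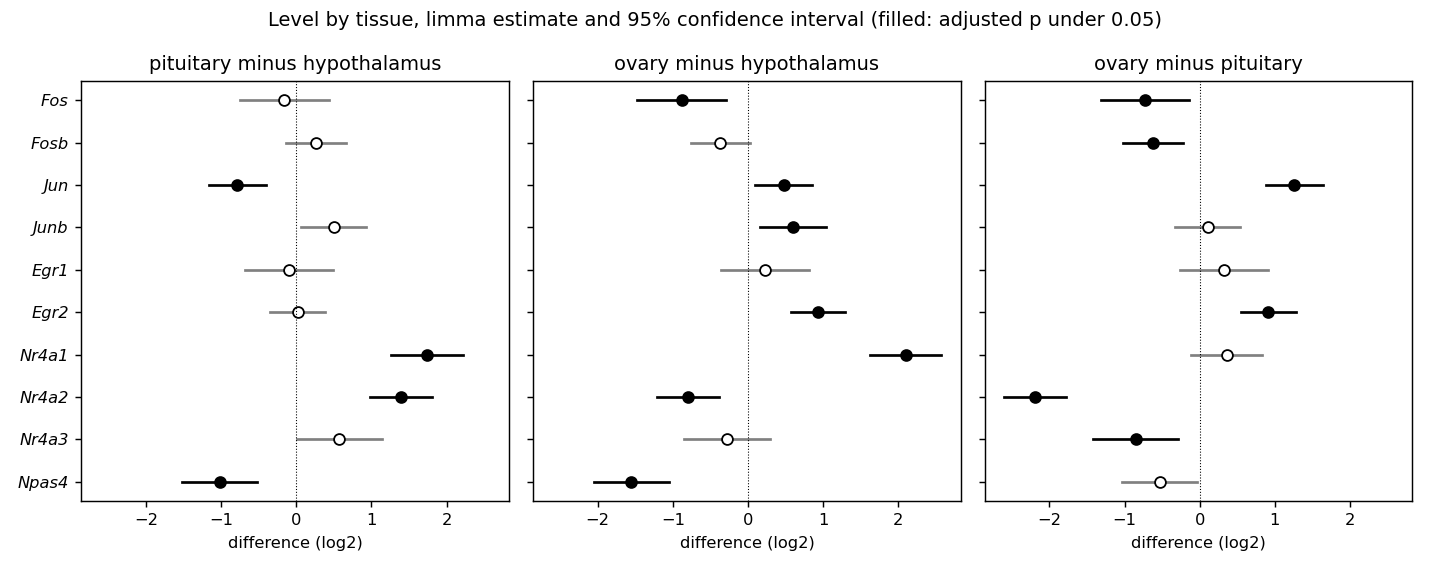
Differences in log2 signal between tissues (x axis) for each gene (y axis), as limma estimates with 95% confidence intervals over all 18 arrays; filled points passed an adjusted p of 0.05. Ovary minus pituitary was -2.19 for Nr4a2, and ovary minus hypothalamus 2.10 for Nr4a1.

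Stress was compared with control within each tissue, over 3 arrays a side, to ask whether transport left a trace in these genes. None of the members passed in any tissue (0 of 10 each), and neither did any other gene (0% of 22180). At an unadjusted p under 0.05 there were 0, 2 and 0 members in hypothalamus, pituitary and ovary, against 1.1%, 1.33% and 2.67% of all genes. With the ovulation class as a block 0 genes passed too, and 0, 3 and 0 members had an unadjusted p under 0.05, against 4.16%, 5% and 9.91% of all genes.

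In pituitary 9 of 10 members were higher in stressed than in control arrays, with a median difference of 0.32 against -0.04 over all genes. Npas4 was 0.92 higher (1.89-fold, interval 0.07 to 1.77, unadjusted p = 0.0366), Egr1 0.82 (1.77-fold, interval -0.08 to 1.73, unadjusted p = 0.0701) and Nr4a1 0.73 (1.66-fold, interval 0.11 to 1.36, unadjusted p = 0.0258), each with an adjusted p near 1. The control Npas4 readings were low, above only 34.0%, 21.6% and 39.6% of genes on the high, low and pool arrays. For these 3 every stressed pituitary array lay above every control one, which held for 2.4% of all genes. Over 12 alternative settings the estimates ran from 0.58 to 1.14 for Npas4, from 0.32 to 1.58 for Egr1 and from 0.47 to 0.93 for Nr4a1, with 0 calls. The stressed Egr1 values fell within 7.36 and 7.43, while the controls ranged from 5.57 to 7.15. The control low mouse gave the lowest pituitary reading of both Egr1 and Npas4. Egr1 differed by 1.795 between the low mice, 0.435 between the high mice and 0.241 between the pools. In that order the differences were 1.204, 0.367 and 1.193 for Npas4 and 0.37, 1.3 and 0.533 for Nr4a1. Stress was higher in all 3 class pairs for 5 members, against 10.1% of all genes. The stressed pituitary pool is the array with ovarian transcripts, and without the pool arrays the differences were 0.79 for Npas4, 1.11 for Egr1 and 0.83 for Nr4a1, with adjusted p between 0.689 and 0.690. Of the 7 hypothalamic markers 6 were lower in stressed pituitaries (median -0.28), with mean levels of 5.43 to 5.65 in control and 5.26 to 5.38 in stressed arrays, and their part in the result was not tested.

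The other pituitary members were closer to control or less even. Fos averaged 0.31 higher, with an interval from -0.92 to 1.54, since the stressed low mouse exceeded the control low mouse by 1.98 while the high mice differed by -0.85. Junb was 0.36 higher (interval -0.25 to 0.97) and Nr4a3 0.33 higher (interval -0.23 to 0.89), both higher in each class pair. Fosb, Egr2 and Nr4a2 had estimates of 0.12, 0.05 and 0.03, and Jun one of -0.04.

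In hypothalamus the members stayed within 0.18 of control in either direction, 7 of 10 higher, with a median of 0.06 against -0.02 over all genes. Intervals were wide: that of Egr1 ran from -1.31 to 0.95 around -0.18, and that of Nr4a1 from -1.02 to 0.99 around -0.01. Groups overlapped for all 10 members, while 1.94% of all genes had stressed arrays all above controls. The class pairs went different ways, with 9 of 10 members higher in the stressed high mouse (median 0.32) and 7 of 10 lower in the stressed low mouse (median -0.13).

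Ovary gave 7 of 10 members higher and a median of 0.22, against -0.02 over all genes. Nr4a3 had the largest estimate, 0.31, with an interval from -0.97 to 1.58, and Jun the lowest, -0.19. Groups overlapped for all 10 members, where 4.71% of all genes had stressed arrays all above controls. By class pair, 6 of 10 members were higher in the stressed low mouse (median 0.44), 8 of 10 in the stressed pool (median 0.20) and 3 of 10 in the stressed high mouse (median -0.12). The difference of the stress effect between tissues was tested as an interaction and passed for 0 members and 0% of genes in each of the 3 tissue pairs, with Egr1 reaching 1.004 between pituitary and hypothalamus (adjusted p = 1).

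**Figure D3:**
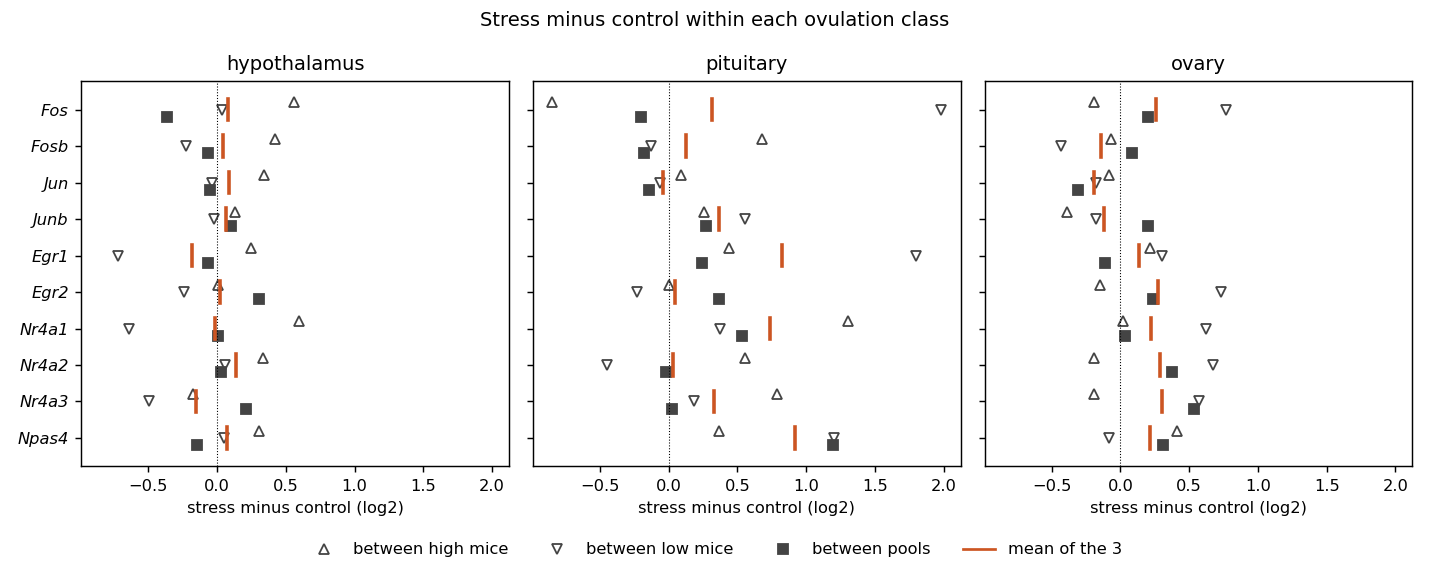
Stress minus control in log2 signal (x axis) for each gene (y axis) in each tissue, with triangles for the single-mouse pairs, squares for the pairs of pools and an orange bar at their mean. Npas4, Egr1 and Nr4a1 were positive in all 3 class pairs of pituitary, and the pairs scattered around 0 in hypothalamus.

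High was compared with low ovulation with class and treatment as terms, which leaves 2 residual degrees of freedom. None of the members passed in any tissue, nor did any gene (0%), although with hypothalamic genes limited to those at or above the median level 1138 genes and 0 members passed. In hypothalamus 9 of 10 members were higher in the high mouse, and the same 9 were higher in the control pair and in the stressed pair, which held for 32.5% of all genes. Their median difference was 0.50 against 0.03 over all genes, and 7 of 10 had an unadjusted p under 0.05, against 19.3% of all genes. Adjusted p ran from 0.176 to 0.636.

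The hypothalamic AP-1 genes Fos and Fosb were higher by 0.75 (1.68-fold, interval 0.18 to 1.31) and 0.67 (1.59-fold, interval 0.18 to 1.15), and Jun and Junb by 0.53 and 0.41. Egr1 was 0.74 higher (1.67-fold, interval 0.15 to 1.33), Nr4a1 0.71 (interval 0.03 to 1.40) and Npas4 0.47 (interval 0.05 to 0.90). Egr2 at 0.39 and Nr4a3 at 0.19 had intervals that included 0, and Nr4a2 was the exception at -0.20. Over 10 alternative settings the estimates ran from 0.39 to 1.11 for Fos, from 0.33 to 1.15 for Egr1 and from 0.24 to 1.19 for Nr4a1. Each of the 9 differences was larger in the stressed pair than in the control pair, with medians over the 10 members of 0.66 and 0.30, and Nr4a1 differed by 1.33 between stressed and 0.09 between control mice. Markers of other tissue also differed: 6 of 7 forebrain neighbour markers were lower in the high mice (median -0.69), with a mean level of 6.80 and 5.89 in high against 7.17 and 6.65 in low mice (control and stressed). The 7 pituitary markers averaged 5.03 and 5.87 in high and 6.07 and 5.24 in low mice. The part of these markers in the result was not tested.

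In pituitary 7 of 10 members were higher in the high mouse (median 0.38, all genes -0.02), with adjusted p from 0.900 to 0.980. Only 3 of them were higher in both pairs (23.8% of all genes), among them Junb at 0.61 and Egr1 at 0.75. The latter came from the control pair, which differed by 1.43 against 0.07 between the stressed mice. Fos went in opposite directions, 1.88 in the control pair and -0.95 in the stressed pair. All 6 endothelial markers were lower in the high mouse (median -0.52), and their part in the result was not tested.

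In ovary 8 of 10 members were lower in the high mouse, with a median of -0.29 against 0.00 over all genes and adjusted p from 0.497 to 0.961. Both pairs were lower for 5 members, against 29% of all genes. The differences were -0.48 for Egr2 (interval -1.04 to 0.07), -0.36 for Egr1 and -0.33 for Jun. The Egr2 value came mainly from the stressed pair, -0.93 against -0.04 in controls. All 6 endothelial markers were lower here too (median -0.25), and their part in the result was not tested.

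Whether ovary and hypothalamus differed in this comparison was tested on the within-animal difference of the tissues, a test added after the values were seen. The high minus low difference was smaller in ovary for 9 of 10 members (median -0.79), and 7 had an unadjusted p under 0.05, against 16.2% of all genes. None passed after adjustment (0 of 10, and 0% of genes). Fosb gave -0.97 (adjusted p = 0.192), Jun -0.87 (adjusted p = 0.193) and Egr1 -1.10 (adjusted p = 0.199), the lowest adjusted p among the members. The 2 other tissue pairs also gave 0 members and 0% of genes.

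**Figure D4:**
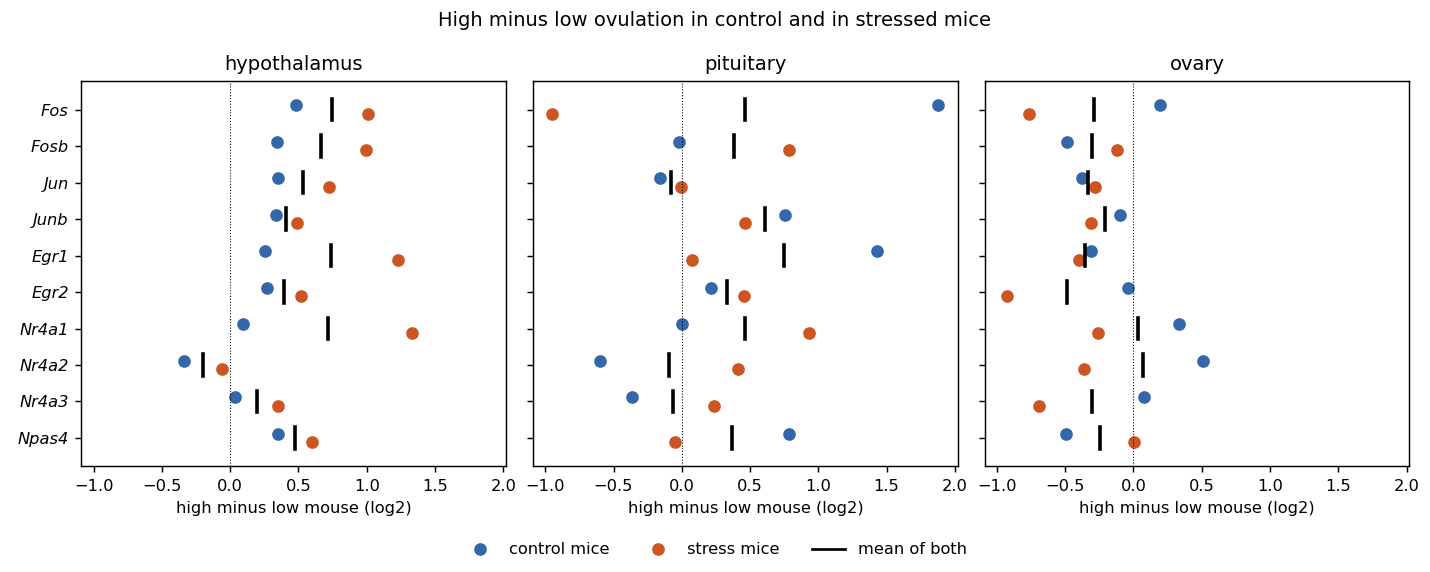
High minus low ovulation in log2 signal (x axis) for each gene (y axis), in the control pair (blue) and the stressed pair (orange) of each tissue, with a bar at their mean. In hypothalamus both points were above 0 for 9 of 10 genes, and in ovary both were below 0 for 5.

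The pools stood apart from the single mice for many members, and they were compared with the mean of the high and low mice after this was seen. Mixing 8 mice, intermediate ovulation and anything else particular to the pools cannot be told apart here. Some pools also carried transcripts of other tissues. Only 2 pools stand against 4 single mice in each tissue. In hypothalamus all 10 members had a positive difference and 5 of 10 passed as higher in the pools, where 7.46% of all genes passed as higher. Both pools lay above all 4 single mice for 8 of 10, against 21% of all genes, and the members' median difference was 0.72 against -0.01. Egr1 was 1.29 higher (2.44-fold, adjusted p = 0.0178), with pools at 7.97 and 7.90 and single mice from 5.92 to 7.14. Npas4 was 1.21 higher (2.32-fold, adjusted p = 0.0109), Nr4a1 1.02 (adjusted p = 0.0458), Nr4a3 1.01 (adjusted p = 0.0205) and Junb 0.77 (adjusted p = 0.0207). With quantile normalization Nr4a1 no longer passed. Fos, in contrast, had pools inside the range of single mice (0.09, interval -0.40 to 0.59).

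In ovary 9 of 10 members had a positive difference and 5 of 10 passed as higher in the pools (8.76% of all genes), both pools lay above all single mice for 7 of 10 (20.9% of all genes), and the median was 0.66 against 0.00. Nr4a3 was 1.63 higher (3.09-fold, interval 1.15 to 2.10, adjusted p = 0.00885), with pools at 6.54 and 7.08 and single mice from 4.93 to 5.62. The single-mouse readings were low, above only 40.5% to 51.5% of genes on their arrays. Junb was 1.04 higher (2.05-fold, adjusted p = 0.0150), Egr1 0.86 (adjusted p = 0.0187), Fosb 0.65 (adjusted p = 0.0442) and Jun 0.57 (adjusted p = 0.0424). With quantile normalization Fosb and Jun no longer passed, and with no treatment term Jun did not. Npas4, high in the hypothalamic pools, differed by -0.04 in ovary (interval -0.42 to 0.34).

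In pituitary 7 of 10 members had a positive difference and Jun alone passed as higher in the pools (1 of 10, where 10.3% of all genes passed as higher), by 0.89 (1.86-fold, adjusted p = 0.0191), with both pools above all single mice as in 24.4% of all genes. Npas4 had a difference of 0.83 (adjusted p = 0.0521), and Fos, with an estimate of -0.78, had an interval from -1.96 to 0.41. Over 9 alternative settings the Fos estimate stayed negative, from -1.403 to -0.151. The pool difference was compared between tissues within animals, and 0 members passed in any tissue pair (0% of genes between hypothalamus and either other tissue, and 0.0135% between ovary and pituitary). All these pool results rest on both pool arrays: without the control pool, or without the stressed pool, 0 members passed in each tissue. The members that passed kept their direction over 9 alternative settings, but not always their size. Estimates ran from 1.08 to 1.49 for hypothalamic Egr1, from 1.05 to 1.38 for hypothalamic Npas4 and from 1.44 to 1.81 for ovarian Nr4a3. Wider relative to their size were hypothalamic Nr4a3 (0.74 to 1.288) and Nr4a1 (0.783 to 1.255) and ovarian Fosb (0.486 to 0.824). Among members that did not pass, hypothalamic Fos changed direction (-0.234 to 0.421). Leaving out the stressed low mouse left 3 calls in hypothalamus and 0 in pituitary, and leaving out the stressed high mouse left 3 in ovary. The stressed hypothalamus pool carried ovarian and both ovary pools carried pituitary transcripts, as given above. The control hypothalamus pool had ovarian markers at 4.92 and pituitary markers at 5.76, where single hypothalami ran from 5.03 to 6.07 for the latter. In that pool Egr1, Npas4 and Nr4a1 were 1.20, 1.37 and 1.01 above its single mice. Markers of the tissues themselves also differed in the pools. Of the 9 ovarian markers 4 passed as higher and 0 as lower in the ovary pools (median 0.88). Of the 7 macrophage and microglia markers 0 passed as higher and 3 as lower there (median -0.48). Hypothalamic markers passed as higher for 2 and as lower for 1 of 7 in hypothalamus, and pituitary markers for 0 and 1 of 7 in pituitary. The part of these markers and of transcripts of other tissues in the pool results was not tested.

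**Figure D5:**
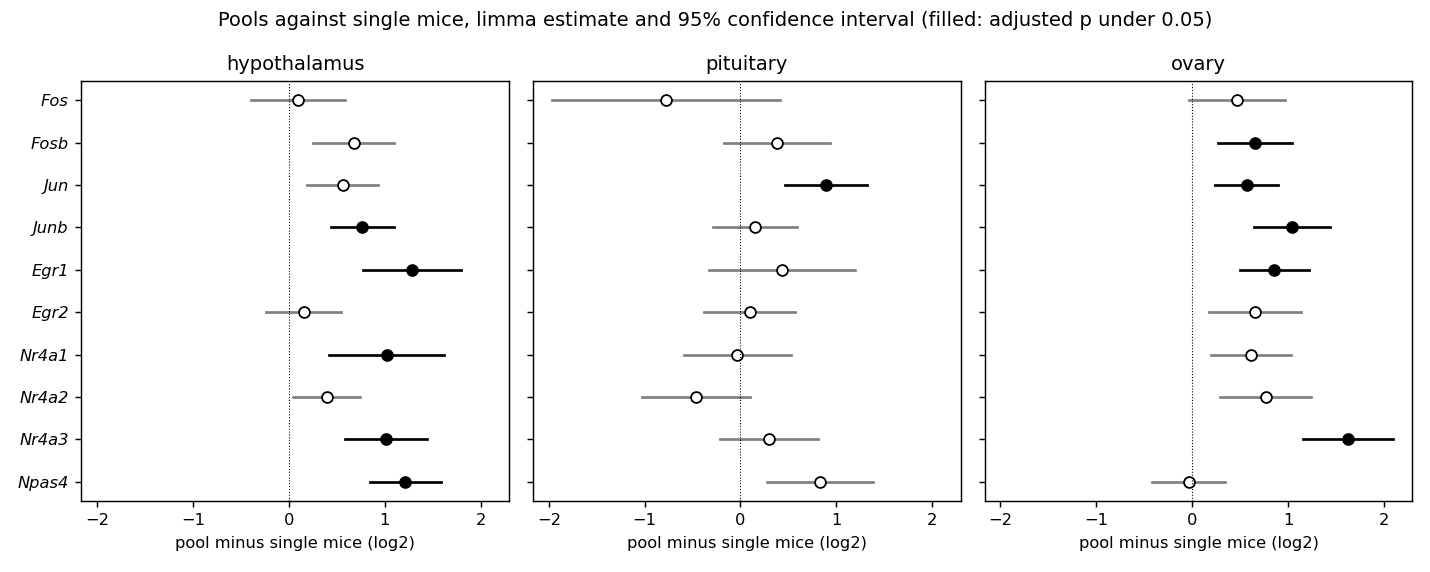
Pool minus the mean of the high and low mice in log2 signal (x axis) for each gene (y axis), as limma estimates with 95% confidence intervals in each tissue; filled points passed an adjusted p of 0.05. Egr1, Npas4, Nr4a1, Nr4a3 and Junb passed in hypothalamus, Jun in pituitary, and Nr4a3, Junb, Egr1, Fosb and Jun in ovary.

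Genes around this set were described from fixed lists. None of the 12 measured AP-1 partners, 4 EGR relatives, 12 other immediate early transcription factors, 28 immediate early effectors, 18 upstream activators, 5 dimer partners and 10 textbook targets passed for stress or for ovulation class in any tissue (0 each). Genes are named here for small unadjusted p values in the stress comparison, and only genes higher after stress are named. Ptgs2, the inducible prostaglandin synthase, was at 0.73 in hypothalamus (unadjusted p = 0.0197) and 1.26 in ovary (unadjusted p = 0.0497). Nab1, a corepressor of EGR proteins, was at 0.43 in ovary (unadjusted p = 0.0283). Star, the cholesterol carrier of steroid synthesis, was 0.40 higher in ovary (unadjusted p = 0.0427). In pituitary its difference was 1.51 (unadjusted p = 0.138), where Star read 8.91 in the stressed pool and 4.62 to 5.27 in the other arrays. Among the effectors 15, 17 and 16 of 28 were higher after stress in hypothalamus, pituitary and ovary, with medians of 0.02, 0.08 and 0.01. The other immediate early transcription factors were higher for 7, 3 and 4 of 12, with medians of 0.01, -0.09 and -0.12. In pituitary 9 of these 12 were thus lower after stress, unlike the members. Upstream activators were higher for 5, 11 and 11 of 18, with medians of -0.12, 0.08 and 0.04.

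In the comparison of pools with single mice, 7.46%, 10.3% and 8.76% of all genes passed as higher in hypothalamus, pituitary and ovary. Effectors passed as higher for 8, 6 and 7 of 28 in these tissues and as lower for 0. Zfp36, which destabilises immediate early transcripts, passed in each tissue (0.97, 0.89 and 0.78), as did the kinase gene Plk3 (0.82, 0.88 and 0.64). The other immediate early transcription factors passed as higher for 1, 2 and 2 of 12 and as lower for 0, 1 and 1. Among them Klf6 passed in each tissue (0.95, 0.91 and 1.09), while Ier2 was lower in the pituitary pools (-0.98) and the ovary pools (-1.13). Of the 18 upstream activators 3, 7 and 3 passed as higher, Elk1, an SRF partner, in each tissue (0.89, 1.12 and 0.72). AP-1 partners passed as higher for 0, 2 and 0 of 12 and EGR relatives for 0, 0 and 1 of 4. Dimer partners, the proteins with which NPAS4 and NR4A factors can pair, passed as higher for 3, 4 and 1 of 5, Arnt2 in each tissue (0.80, 1.33 and 0.91), and textbook targets for 1, 2 and 1 of 10.

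The genes most like the members were named by the correlation with the members' mean profile after tissue means were removed. Over 18 arrays, among 10613 genes at or above the median level, these were Sik1 (Pearson r 0.891), Peg10 (0.887), Eya3 (0.837), Zfp36 (0.835), Plcd3 (0.831) and Nop53 (0.829). On the 12 single-mouse arrays alone the values were 0.905 for Sik1, 0.690 for Peg10, 0.707 for Eya3, 0.823 for Zfp36, 0.845 for Plcd3 and 0.478 for Nop53. Of the members themselves Junb had the highest r over 18 arrays (0.939) and Fos the lowest (0.427), each being part of the mean. An r as high as that of Fos was reached by 30.5% of the 10613 genes. On the 12 single-mouse arrays Nr4a1 had the highest r of the members (0.875) and Nr4a2 the lowest (0.072), with Fos at 0.61. These values are a description: arrays of a mouse or pool and the shared scaling of an array tie the points together.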

How the data were processed

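Total RNA was extracted with Trizol and hybridised to Affymetrix Mouse Gene 2.0 ST arrays from 6 µg, per the labels. The authors deposited 1 log2 signal per transcript cluster, made with Transcriptome Analysis Console per the submitters' processing notes; its version, normalization and filters are not given in the sources used here. The log2 scale was read from the highest value, 13.66, above the natural log of the largest 16-bit reading (11.09) and below its log2 (16). Of 41345 clusters, 23521 named 1 gene, and the cluster with the highest mean over the arrays stood for each of 22180 genes, with no filter on low values. Column medians ran from 4.75 to 5.03, and the number of arrays limits the precision. Same-tissue arrays correlated at 0.928 to 0.988, and 0 of 153 pairs were identical.

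Tests were run in R 4.3.3 with lmFit and eBayes of limma 3.58.1, two-sided, with Benjamini-Hochberg adjustment over 22180 genes and a threshold of 0.05. Stress against control had 4 residual degrees of freedom, class contrasts 2, and models over 18 arrays an animal block (consensus correlation 0.27). The steps were tested on simulated data, where the class contrasts (high against low, pools against single mice) made more false calls than their nominal rate, so calls close to the threshold in them are less certain than the adjusted p states. The members, lists and tests were chosen with earlier results of these data known. The comparison of pools with single mice and the within-animal tests between tissues were added after seeing the data. All members were named, up to 3 genes per list, direction and tissue by smallest unadjusted p for stress, and the 6 genes of highest likeness; list genes named for the pools were chosen after their values were seen.

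Arrays of the same ovulation class deviated together: the 9 same-class correlations of deviations from group means ran from 0.359 to 0.727 and the 18 others from -0.521 to 0.321. The pairing comes from the class names, not from shared animals, and single mice of pituitary gave 0.366 and 0.359 within and 0.321 and 0.313 between classes. Each sample is 1 mouse or 1 pool. Alternatives were quantile normalization, median centring, array weights, a class block, no treatment term, no animal block, all single-gene clusters, genes at or above the median level, no pool arrays, and leaving out each array.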

Additional observations from a re-analysis of the deposited data

How the results depend on the processing

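The calls of level for Nr4a1, Nr4a2, Jun and Npas4 between pituitary and hypothalamus, for Egr2, Nr4a1, Nr4a2 and Npas4 between ovary and hypothalamus, and for Jun, Egr2 and Nr4a2 between ovary and pituitary passed under all 22 alternatives. Stress and ovulation class gave 0 called members under every alternative run, the ovulation class as a replicate block included, which called 0 genes in each tissue and had a lowest adjusted p of 0.856 among pituitary members. Pool calls of members fell to 0 when either pool was left out. The cause of the changes below was not tested. For genes at or above the median level the fit was repeated on those genes alone. Both the number adjusted over and the spread shared between genes then differ from the main fit. An array left alone in its arm by an omission is assumed to vary like the rest. The number of arrays limits the stress comparisons, whose median standard error was 0.229, 0.268 and 0.213 in hypothalamus, pituitary and ovary.

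Values that changed direction, and counts that moved by over 1.5 times, are given by setting, with the smaller moves of the pool counts after them. With quantile normalization, stress minus control in hypothalamus was 0.025 for Nr4a1, stress minus control in pituitary was -0.022 for Egr2 and pool minus single mice in ovary was 0.051 for Npas4. Under the same setting, pool minus single mice in ovary had 3 members called and the level of pituitary minus hypothalamus was -0.107 for Egr2. Without the pool arrays, stress minus control in hypothalamus was -0.117 for Egr2, stress minus control in pituitary was 0.012 for Jun and -0.116 for Egr2 and the stress effect of pituitary minus hypothalamus had 1 gene called. Under the same setting, the stress effect of ovary minus hypothalamus had 1 gene called, the level of pituitary minus hypothalamus was 0.131 for Fos and 0.188 for Egr1 and the level of ovary minus pituitary was -0.19 for Junb. With array weights, stress minus control in hypothalamus was 0.052 for Nr4a1 and stress minus control in pituitary was -0.079 for Egr2 and -0.263 for Nr4a2. Among genes at or above the median level, high minus low ovulation in hypothalamus had 1138 genes called. Pool minus single mice then had 8 members and 4379 genes called in hypothalamus, and 8 members and 4443 genes called in ovary. The main fit called 2709 and 2913 of 22180 genes in these 2 tissues, higher and lower together. Counts in this setting are over the kept genes alone, without members below the median level. They cannot be set against shares of 22180 genes. With each array centred on its median, stress minus control in pituitary was -0.024 for Egr2 and -0.042 for Nr4a2, pool minus single mice in pituitary was 0.041 for Nr4a1 and pool minus single mice in pituitary had 2 members called. Under the same setting, pool minus single mice in ovary was 0.024 for Npas4 and the level of pituitary minus hypothalamus was -0.121 for Egr2. With no animal block, the level of ovary minus pituitary had 3 members called. Pool calls of members in hypothalamus were 4 with quantile normalization, 7 with median centring and 7 with no treatment term, and in ovary 6 with median centring and 4 with no treatment term. With no animal block 5 members passed for ovary minus hypothalamus.

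With 1 array left out at a time, the lowest and highest values were as follows for results that changed direction or count. Stress minus control in hypothalamus ran for Fos from -0.215 to 0.289, Fosb from -0.168 to 0.392, Jun from -0.113 to 0.341, Junb from -0.196 to 0.321, Egr1 from -0.638 to 0.354, Egr2 from -0.099 to 0.213, Nr4a1 from -0.356 to 0.493, Nr4a2 from -0.023 to 0.3, Nr4a3 from -0.58 to 0.152 and Npas4 from -0.279 to 0.53. High minus low ovulation in hypothalamus ran for Nr4a3 from -0.062 to 0.45. High minus low ovulation in hypothalamus had genes called from 0 to 1. Pool minus single mice in hypothalamus ran for Fos from -0.234 to 0.421 and Egr2 from -0.055 to 0.366. Pool minus single mice in hypothalamus had members called from 0 to 7 and genes called from 92 to 3228. Stress minus control in pituitary ran for Fos from -0.118 to 0.847, Fosb from -0.048 to 0.346, Jun from -0.313 to 0.284, Egr2 from -0.066 to 0.215 and Nr4a2 from -0.158 to 0.249. High minus low ovulation in pituitary ran for Fos from -0.786 to 1.718, Fosb from -0.031 to 0.802, Jun from -0.178 to 0.015, Nr4a2 from -0.492 to 0.303, Nr4a3 from -0.402 to 0.278 and Npas4 from -0.05 to 0.781. Pool minus single mice in pituitary ran for Egr1 from -0.004 to 0.87, Egr2 from -0.149 to 0.337 and Nr4a1 from -0.247 to 0.177. Pool minus single mice in pituitary had members called from 0 to 2 and genes called from 804 to 4779. Stress minus control in ovary ran for Fosb from -0.413 to 0.03, Jun from -0.392 to 0.03, Junb from -0.548 to 0.169, Egr1 from -0.117 to 0.482 and Nr4a3 from -0.293 to 0.79. High minus low ovulation in ovary ran for Fos from -0.669 to 0.099, Nr4a1 from -0.26 to 0.333, Nr4a2 from -0.291 to 0.432 and Nr4a3 from -0.68 to 0.067. High minus low ovulation in ovary had genes called from 0 to 27. Pool minus single mice in ovary ran for Npas4 from -0.148 to 0.074. Pool minus single mice in ovary had members called from 0 to 6 and genes called from 44 to 2888. The stress effect of pituitary minus hypothalamus had genes called from 0 to 1. The stress effect of ovary minus hypothalamus had genes called from 0 to 1. The level of pituitary minus hypothalamus ran for Fos from -0.425 to 0.041, Egr1 from -0.361 to 0.117 and Egr2 from -0.075 to 0.094. The level of ovary minus hypothalamus ran for Egr1 from -0.037 to 0.432. The level of ovary minus pituitary ran for Junb from -0.077 to 0.26.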

Other observations

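Egr2 read almost the same in hypothalamus and pituitary of each mouse or pool, which was noticed after its values were seen. The pituitary minus hypothalamus difference in log2 signal was 0.01, 0.06 and -0.06 in the control high, low and pool samples and 0.01, 0.07 and 0.01 in the stressed ones. The largest of these sizes was 0.069, and the share of the 22180 genes with a largest size that small was 0.00451%, which is Egr2 alone. Fosb, the member with the next smallest, reached 0.55, a size that 21.1% of all genes did not exceed. Across the 6 mice and pools Egr2 varied more than that within a tissue, from 5.04 to 5.66 in hypothalamus and from 5.11 to 5.67 in pituitary. These readings were low to middling, above 41.5% to 50.5% of genes on their arrays.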
